A study of Mus musculus with 6 samples.

Results

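The genes described here are 34 genes of the ATF4 response and of amino acid supply, out of 18193 genes with a probe set of their own on the array. They were chosen by name, with earlier results of these data known. Each gene has 1 probe set, the one with the highest mean over all 6 arrays, and 33 of the 34 were bright enough to be tested. The samples were J1 mouse embryonic stem cells, an established line, that all carried a pLKO.1 lentivirus. All had been selected with puromycin at 1.5 ug/ml for 2 days, starting 1 day after infection. The shNT group received a non-targeting hairpin, and the shJmjd1c#3 and shJmjd1c#4 groups each received 1 hairpin against Jmjd1c, a JmjC-domain protein related to histone demethylases. Each group had 2 arrays, which the labels call biological replicates, and the puromycin-resistant cells were replated with no clone named. All groups were grown on gelatin in 1 medium, with 15% serum, 1000 U/ml leukemia inhibitory factor, 2 mM Glutamax, 0.1 mM nonessential amino acids and 0.1% mercaptoethanol, and the cultures were collected 4 days after replating.

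ATF4 is a transcription factor whose protein is made when phosphorylation of the initiation factor eIF2 slows general translation, as happens when amino acids run short, when unfolded protein builds up in the endoplasmic reticulum or under oxidative stress. The level of its messenger RNA therefore says little about its activity, which is usually read from its targets. These include enzymes that make serine, glycine, asparagine and cysteine, carriers that bring amino acids into the cell, and proteins such as Trib3 and Ppp1r15a that later damp the response. ATF4 binds with partners of the C/EBP family to a composite element in which a C/EBP site stands beside an ATF site.

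Promoter sequences were searched for the letters TGATGNAA on both strands, the core shared by many such elements, because the genes were chosen as a set of candidate targets. RefSeq windows on GRCm38.p6, each reaching from 250 bases before the start site to 50 after it, were held for 29 of the 34 genes, and Cth, Slc7a3, Slc7a5, Slc1a5 and Eif4ebp1 were not among them. A match was found in 8 of the 29 genes (27.6%), against 4.51% of all 27025 genes with a window. For the stricter letters TGATGCAA, which are a subset of the first, the shares were 17.2% and 1.03%. The matches are printed below with 10 flanking bases on each side, read 5′ to 3′ on the gene's own strand, with the matching letters in capitals. Where the capitals begin with TT they show the element on the opposite strand.
Nupr1, chr7:126625563-126625590, minus strand: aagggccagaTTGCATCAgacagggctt
Trib3, chr2:152344029-152344056, minus strand: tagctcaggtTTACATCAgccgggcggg
Chac1, chr2:119351039-119351066, plus strand: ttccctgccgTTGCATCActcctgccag
Asns, chr6:7693215-7693242, minus strand: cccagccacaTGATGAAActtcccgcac
Pck2, chr14:55540153-55540180, plus strand: gccttcaaagTTACATCAgtatcttaca
Slc7a11, chr3:50443662-50443689, minus strand: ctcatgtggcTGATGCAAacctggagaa
Slc7a11, chr3:50443643-50443670, minus strand: cctggagaatTTGCATCAtcatgcagcc
Slc1a4, chr11:20332700-20332727, minus strand: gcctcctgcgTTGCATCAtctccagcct
Vldlr, chr19:27216810-27216837, plus strand: gcagcaatagTTGCATCAgcgctcctag
The first base of the match lay 110 bases before the start site in Nupr1, 23 before it in Asns and 4 before it in Slc1a4, and in Trib3 it lay 14 bases after it. Slc7a11 held 2 matches in opposite orientation. A match is a run of letters and not evidence of binding.

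The 250 bases upstream of Nupr1, the gene with the largest difference below, are shown whole (chr7:126625471-126625720, minus strand, 5′ to 3′, match in capitals).
Nupr1: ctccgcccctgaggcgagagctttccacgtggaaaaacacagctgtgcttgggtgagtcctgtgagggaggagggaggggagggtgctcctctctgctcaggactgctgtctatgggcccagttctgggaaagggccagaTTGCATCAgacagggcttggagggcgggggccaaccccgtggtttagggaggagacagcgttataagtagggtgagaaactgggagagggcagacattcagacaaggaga

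The most abundant probe set of Jmjd1c read 6060 and 5516 on the shNT arrays, 4541 and 4984 with shJmjd1c#3 and 3274 and 4215 with shJmjd1c#4. Its log2 difference, knockdown minus control, was -0.46 (SE 0.13, adjusted p = 0.358 by limma over all probe sets), whereas the other 2 probe sets were higher in knockdown arrays, at 0.90 and 0.73. With the block the probe set at 0.90 passed (adjusted p = 0.0127 by limma), against its label, and the one at -0.46 did not (0.0745). The probe sets of the targeted gene thus disagree, and the groups are called knockdown by their labels. Of 15 embryonic stem cell markers all were bright enough to be tested, with Sox2 between 12259 and 16069 and Nanog between 5888 and 11375 over the 6 arrays. The summed signal of these markers was 131742 and 157774 in shNT, 110539 and 120078 in shJmjd1c#3 and 114900 and 126559 in shJmjd1c#4. Markers of feeder fibroblasts summed to 3260 to 3387 in shNT, 4136 to 4161 in shJmjd1c#3 and 5024 to 5183 in shJmjd1c#4, and all 13 of the 20 listed that were tested were higher in the knockdown mean, with means of 11.3 for Dcn and 12.6 for the untested Lum in controls. The 18S ribosomal RNA control read 8140 and 6875 in shNT and between 3712 and 6177 in the 4 knockdown arrays. Markers of endoderm summed to 1594 to 1666 in shNT, 1446 to 1605 in shJmjd1c#3 and 2621 to 2990 in shJmjd1c#4. These shifts stood beside all the differences given next, and their part in them was not tested. In such bulk samples fewer cells of a type and less RNA per cell cannot be told apart.

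Compared with control cells, knockdown cells had lower signal for most of the 34 genes. The largest log2 differences were -1.46 for Nupr1 and -0.82 for Atf5, and the other genes tested lay between -0.59 and 0.27. The log2 difference between the mean of both hairpins and shNT was below 0 for 29 of the 33 genes tested, against 48.3% of all 12684 genes tested. Its median was -0.26 over the 33 genes and 0.01 over all genes. All 4 knockdown arrays lay below both controls for 12 of the 33 genes (36.4%) and above both for 0, where the shares over all genes were 9.54% and 11.2%. Because the genes were chosen with earlier results of these data known, these shares describe the genes and do not test the list. Nupr1 alone passed the threshold, an adjusted p under 0.05 by limma over all genes tested, and 11 of the 33 had an unadjusted p under 0.05, all lower, against 5.38% of all genes lower and 6.91% higher. Over all genes 0.725% passed, 0.166% as lower and 0.56% as higher. With the replicate number added to the fit as a block, which compares same-numbered arrays with each other, 11 of the 33 genes passed and all were lower, against 5.6% of all genes, 2.26% lower and 3.33% higher. These counts rest on the pairing of arrays by number, which no label states outright.

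**Figure D1:**
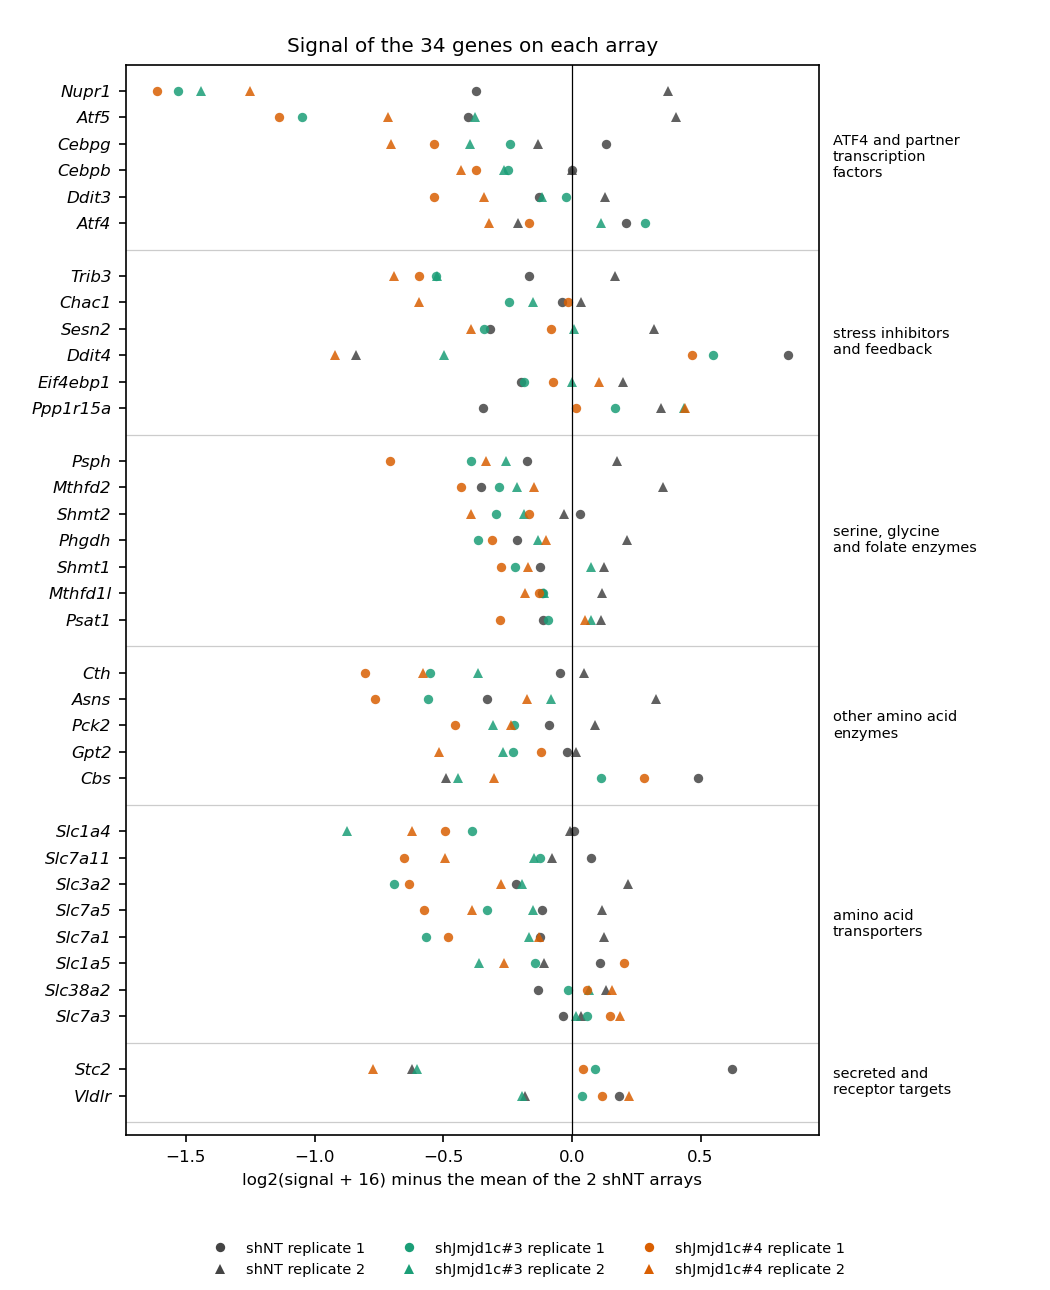
Each row is 1 of the 34 genes and each point 1 array, placed at its log2(signal + 16) minus the mean of the 2 shNT arrays, with colour for the hairpin, circles for replicate 1 and triangles for replicate 2. The 4 knockdown points of Nupr1 lie left of both shNT points, while those of Atf4, Ddit4, Cbs and Stc2 overlap them.

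**Figure D2:**
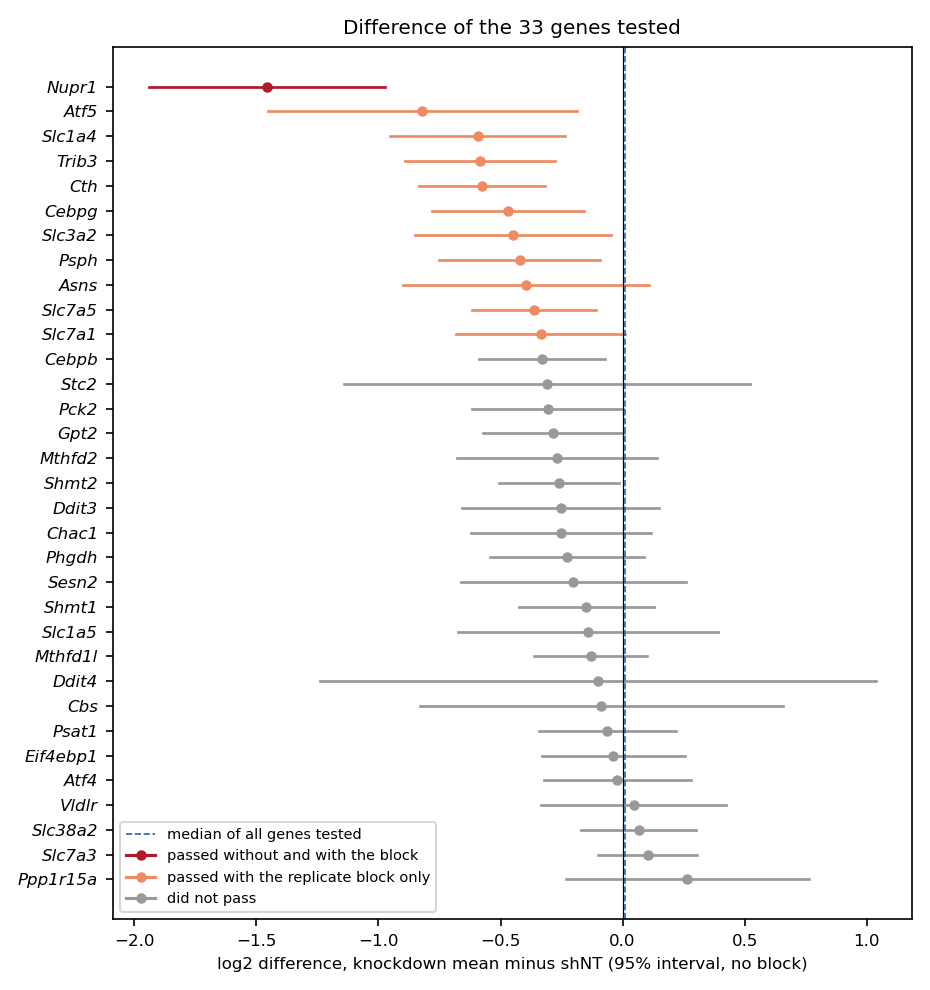
Points give the log2 difference of the knockdown mean from shNT for the 33 genes tested, with 95% intervals from the limma fit without the block, and colour shows which passed. Nupr1 stands at -1.46 with an interval from -1.94 to -0.98, and 28 of the other genes also lie below 0.

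Among ATF4 and its partner transcription factors, Nupr1 fell. Nupr1, a small stress-induced chromatin protein, read 976 and 1649 on the shNT arrays, 429 and 458 with shJmjd1c#3 and 405 and 525 with shJmjd1c#4. Knockdown cells thus kept 34.6% of the control mean, and the 2 hairpins gave almost equal levels, 33.8% and 35.4%. The log2 difference was -1.46 (SE 0.21, adjusted p = 0.0279 by limma, and 0.00027 with the block), the second lowest of the 12684 genes tested, at rank 2. Within replicate 1 it was -1.20 and within replicate 2 it was -1.72. A second Nupr1 probe set was at -1.14 (SE 0.32; adjusted p = 0.366 by limma over all probe sets, and 0.0258 with the block). The call for Nupr1 was lost without shNT replicate 2 (log2 -1.08, adjusted p = 0.117 by limma), without shJmjd1c#3 replicate 1 or 2 (0.0629 and 0.0739) and without shJmjd1c#4 replicate 1 (0.0749). It was also lost without an intensity trend (0.143) and with the mean of its probe sets (log2 -1.30, adjusted p = 0.115 by limma).

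Atf5, a bZIP factor that like ATF4 is translated more when eIF2 is phosphorylated, read 380 and 677 in shNT, 237 and 388 with shJmjd1c#3 and 222 and 303 with shJmjd1c#4. The groups overlapped by 1 array, since shJmjd1c#3 replicate 2 lay just above shNT replicate 1. Its log2 difference of -0.82 (SE 0.28) did not pass without the block (adjusted p = 0.281 by limma) and passed with it (adjusted p = 0.00999). Without shNT replicate 2 it was -0.42 in the fit without the block. Cebpg, a C/EBP protein that pairs with ATF4, read 1137 and 946 in shNT, 875 and 785 with shJmjd1c#3 and 711 and 632 with shJmjd1c#4. All 4 knockdown arrays were lower than both controls, and the log2 difference of -0.47 passed only with the block (adjusted p = 0.0309 by limma). Cebpb, another C/EBP factor, read 1128 on both shNT arrays, 946 and 936 with shJmjd1c#3 and 867 and 833 with shJmjd1c#4. It also had no overlap between groups, but its log2 difference of -0.33 did not pass without or with the block (adjusted p = 0.285 and 0.0964 by limma).

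The messenger RNA of Atf4 itself gave no clear difference. Its brighter probe set read 4878 and 3638 in shNT, 5138 and 4564 with shJmjd1c#3 and 3750 and 3364 with shJmjd1c#4, so the groups overlapped. The log2 difference was -0.02, with a 95% interval from -0.32 to 0.28. The other Atf4 probe set read 4578 and 5117 in shNT, 3450 and 4064 with shJmjd1c#3 and 3546 and 3899 with shJmjd1c#4. There all 4 knockdown arrays lay below both controls, at a log2 difference of -0.37 (SE 0.11), which did not pass without or with the block (adjusted p = 0.394 and 0.0555 by limma over all probe sets). The probe sets thus disagreed, and the brighter one has an ID that marks possible cross-hybridization. IDs that mark it also belong to the probe sets used for Trib3, Asns, Phgdh, Psat1, Shmt2, Gpt2, Cbs, Eif4ebp1 and Vldlr. Ddit3, the proapoptotic factor also called CHOP, read 299 and 360 in shNT, 322 and 301 with shJmjd1c#3 and 221 and 256 with shJmjd1c#4. Only the shJmjd1c#4 arrays lay below both controls, and the log2 difference of -0.25 (95% interval -0.66 to 0.15) did not pass.

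Of 6 genes that restrain growth or feed back on the response, Trib3 passed with the block and 5 did not pass. Trib3, a pseudokinase that binds ATF4 and CHOP and limits their activity, read 1080 and 1368 in shNT, 839 and 840 with shJmjd1c#3 and 800 and 747 with shJmjd1c#4. Every knockdown array was lower than both controls, at 65.9% of the control mean. The log2 difference was -0.58 (SE 0.13; adjusted p = 0.126 by limma, and 0.018 with the block), and a second probe set was at -0.73. Chac1, which breaks down glutathione, and Sesn2, a leucine-sensing inhibitor of mTORC1, were at log2 -0.25 and -0.20. Ddit4, another mTORC1 inhibitor, and Eif4ebp1, a repressor of cap-dependent translation, were at -0.10 and -0.04. Ppp1r15a, which brings phosphatase to eIF2, had the highest value of the 33 genes at 0.27 (95% interval -0.23 to 0.76). In each of these 5 genes knockdown arrays overlapped the controls.

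The 7 enzymes of serine, glycine and folate metabolism all had log2 differences below 0, from -0.42 to -0.06, and 1 passed with the block. Psph, the phosphatase of the last step of serine synthesis, read 2230 and 2841 in shNT, 1915 and 2103 with shJmjd1c#3 and 1536 and 1997 with shJmjd1c#4. The knockdown arrays all lay below the controls, and its log2 difference of -0.42 passed with the block (adjusted p = 0.0249 by limma) but not without it (0.285), and was -0.25 without shNT replicate 2. Phgdh and Psat1, the enzymes of the first steps of the same route, were at -0.23 and -0.06 and did not pass. Other probe sets of Phgdh lay from -0.08 to -0.05. Psat1 was measured by 2 probe sets of near equal brightness, and the other one was at -0.23 (SE 0.15). Shmt2, the mitochondrial enzyme that turns serine into glycine, read 2792 and 2678 in shNT, 2228 and 2401 with shJmjd1c#3 and 2432 and 2079 with shJmjd1c#4. Its arrays did not overlap either, yet the log2 difference of -0.26 did not pass without or with the block (adjusted p = 0.378 and 0.141 by limma). The cytosolic form Shmt1 was at -0.15, and the mitochondrial folate enzymes Mthfd2 and Mthfd1l were at -0.27 and -0.13. Other probe sets of Shmt1 were at -0.34, -0.34 and -0.01, and the other one of Mthfd2 was at -0.42. The probe sets at -0.34 and -0.42 had all knockdown arrays below both controls. None of these other probe sets passed without or with the block by limma over all probe sets.

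Among 5 other amino acid enzymes, Cth and Asns passed with the block. Cth, which makes cysteine from cystathionine, read 3023 and 3221 in shNT, 2125 and 2418 with shJmjd1c#3 and 1780 and 2083 with shJmjd1c#4. The control arrays differed little from each other and all knockdown arrays lay below them, at 67.3% of the control mean. The log2 difference was -0.58 (SE 0.11), with an adjusted p of 0.0789 by limma and 0.00304 with the block. Asns, asparagine synthetase, a classical ATF4 target, read 8794 and 13871 in shNT, 7483 and 10449 with shJmjd1c#3 and 6501 and 9777 with shJmjd1c#4. Replicate 2 was brighter than replicate 1 in every group, so the groups overlapped although each knockdown array was dimmer than the control of its own number. The log2 difference of -0.39 accordingly had an SE of 0.22 without the block (adjusted p = 0.527 by limma) and of 0.0691 with it (adjusted p = 0.00766). In the fit without the block it was -0.72 without shNT replicate 1, -0.067 without shNT replicate 2 and -0.25 without shJmjd1c#4 replicate 1. Pck2, the mitochondrial enzyme that makes phosphoenolpyruvate, read 785 and 891 in shNT, 713 and 673 with shJmjd1c#3 and 606 and 708 with shJmjd1c#4. Pck2 and Gpt2, an alanine aminotransferase, had no overlap between groups, with log2 differences of -0.31 and -0.28 that did not pass, and Cbs, which acts just before Cth, was at -0.09 with wide scatter.

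Of 7 amino acid carriers tested, 4 fell with the block and 3 did not pass. Slc3a2, the heavy chain shared by several carriers, read 4253 and 5747 in shNT, 3058 and 4319 with shJmjd1c#3 and 3186 and 4081 with shJmjd1c#4. Its partner Slc7a5, which takes up large neutral amino acids, read 6853 and 8052 in shNT, 5899 and 6688 with shJmjd1c#3 and 4982 and 5665 with shJmjd1c#4. Slc3a2 overlapped between groups in 1 array and Slc7a5 in 0, and both passed with the block, at log2 differences of -0.45 and -0.36 (adjusted p = 0.00734 and 0.0131 by limma). Slc1a4, a carrier of alanine, serine and cysteine, read 1056 and 1045 in shNT, 800 and 567 with shJmjd1c#3 and 741 and 677 with shJmjd1c#4. The knockdown arrays kept 66.2% of the control mean, a log2 difference of -0.59 (adjusted p = 0.169 by limma, and 0.0213 with the block). Slc7a1, a carrier of arginine and lysine, read 3046 and 3628 in shNT, 2239 and 2961 with shJmjd1c#3 and 2375 and 3045 with shJmjd1c#4. Its highest knockdown array nearly reached the lower control, and the log2 difference of -0.34 passed with the block (adjusted p = 0.0391 by limma). Without shNT replicate 2 and without the block, Slc7a1 was at -0.21 and Slc3a2 at -0.23.

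Other carriers did not pass. Slc7a3, which carries the same cationic amino acids as Slc7a1, was at 0.10 with a 95% interval from -0.10 to 0.31, and Slc38a2, a sodium-coupled carrier of small neutral amino acids, was at 0.07 with an interval from -0.17 to 0.30. Slc1a5, a glutamine carrier, was at -0.14 on a dim probe set. Slc7a11, the cystine carrier, was too dim to be tested, with signals of 50.4 and 43.8 in shNT, 41.8 and 40.9 with shJmjd1c#3 and 24.1 and 28.8 with shJmjd1c#4. The filter kept probe sets with a mean signal of about 40.1 or more, so Slc7a11 fell just short of it. Of the secreted and receptor targets, Stc2, a stress-induced glycoprotein, and Vldlr, a lipoprotein receptor, were at -0.31 and 0.05 and did not pass without or with the block.

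**Figure D3:**
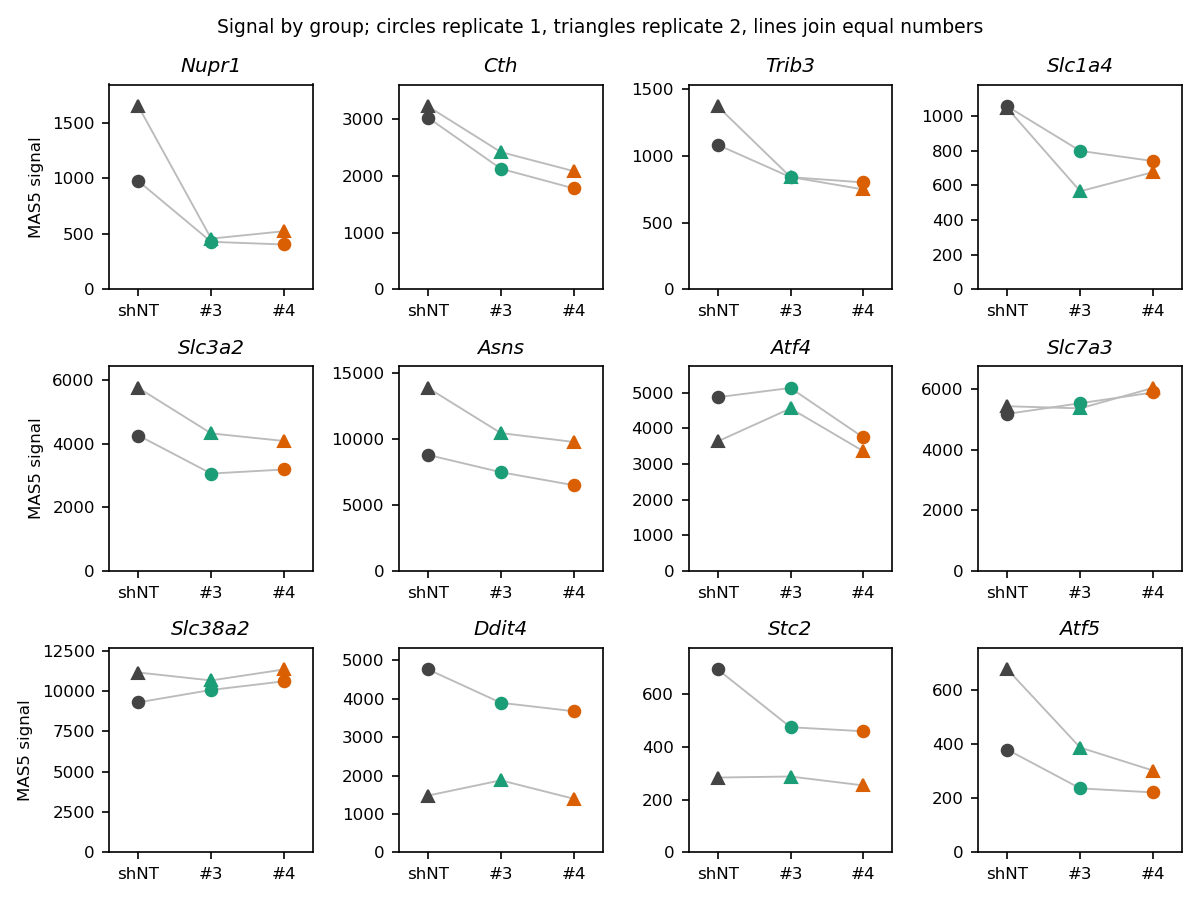
MAS5 signal, on a linear axis from 0, of 12 of the genes in shNT, shJmjd1c#3 and shJmjd1c#4, with 1 point per array and lines joining arrays of the same replicate number. Asns falls along both lines although its groups overlap, and Ddit4 and Stc2 differ between replicate numbers more than between groups.

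The hairpins were compared each with the same 2 controls, so their results are not independent. Without the block 0 of the 33 genes passed for shJmjd1c#3 and 0 for shJmjd1c#4 by limma, with 4 and 9 at an unadjusted p under 0.05, all lower. At that unadjusted level 4.18% of all genes were lower and 5.56% higher for shJmjd1c#3, and 5.35% and 6.8% for shJmjd1c#4. Over all genes 0.071% passed for shJmjd1c#3, 0.00788% as lower and 0.0631% as higher, and 0.363% for shJmjd1c#4, 0.0788% as lower and 0.284% as higher. With the block 4 passed for shJmjd1c#3, namely Nupr1, Cth, Slc3a2 and Slc1a4, and 9 for shJmjd1c#4, namely Nupr1, Atf5, Cebpg, Trib3, Psph, Asns, Cth, Slc7a5 and Slc3a2. All were lower. Of all genes 3.43% passed with the block for shJmjd1c#3, 1.4% as lower and 2.03% as higher, and 4.9% for shJmjd1c#4, 2.22% as lower and 2.69% as higher. The endoderm markers had a median log2 difference of 0.10 for shJmjd1c#3, with 0 higher and 1 lower of 10 passing with the block, and of 0.66 for shJmjd1c#4, with 4 higher and 0 lower, and their part in the counts of the 33 genes was not tested. The median log2 difference of the 33 genes was -0.25 for shJmjd1c#3 and -0.30 for shJmjd1c#4, with 28 of them below 0 for each, against 49% and 47.4% of all genes. Tested against each other, shJmjd1c#4 minus shJmjd1c#3 gave 0 of 33 genes past the threshold by limma without the block and 0 with it. Of all genes 0% passed without it and 0.418% with it, 0.244% as lower and 0.173% as higher. Only 1 of the 33 genes had an unadjusted p under 0.05, beside 6.1% of all genes, 3.15% lower and 2.95% higher. That gene was Atf4, lower with shJmjd1c#4 by a log2 of -0.45 (SE 0.15, adjusted p = 0.727 by limma). The other Atf4 probe set gave -0.37 and -0.38 for the hairpins against shNT, nearly the same value. For Nupr1 the hairpins differed by 0.05, with a 95% interval from -0.50 to 0.61, and for Cth by -0.23, with an interval from -0.53 to 0.06.

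Genes of related pathways, in 9 lists that share some genes, were called in total about as often as all genes. More of their calls were lower than higher, whereas over all genes more were higher. Of 127 list genes tested, leaving out Sesn2, which is also one of the 34 and stands in the p53 list, 0 passed without the block by limma and 8 with it, 2 higher and 6 lower. The 8 are 6.3% of the list genes, beside 5.6% of all genes, 2.26% lower and 3.33% higher. At an unadjusted p under 0.05 there were 15, of which 6 were higher and 9 lower, or 11.8% beside 12.3% of all genes. The lower ones were 7.09%, beside 5.38% of all genes, and the higher ones 4.72%, beside 6.91%. Of the cytosolic aminoacyl-tRNA synthetases, which charge transfer RNAs and include known ATF4 targets, 16 of 19 were below 0, with a median log2 difference of -0.11. The enzyme for cysteine, Cars, was at -0.52 and that for serine, Sars, at -0.37, and both passed with the block (adjusted p = 0.0254 and 0.0311 by limma), while Qars, for glutamine, was at -0.24 and did not. The 19 other ATF4 targets went both ways, with 11 below 0 and 8 above, a median of -0.03 for the knockdown mean and medians of -0.14 for shJmjd1c#3 and 0.08 for shJmjd1c#4. All 4 knockdown arrays lay below both controls in 2 (10.5%, against 9.54% of all genes) and above both in 3 (15.8%, against 11.2%). With the block 1 passed, Jdp2, a bZIP repressor. Jdp2 read 637 and 729.6 in shNT, 394 and 463 with shJmjd1c#3 and 399 and 482 with shJmjd1c#4, with no overlap and a log2 difference of -0.64 (adjusted p = 0.152 by limma, and 0.015 with the block). Aldh18a1, an enzyme of proline synthesis, was at -0.28 and did not pass. Atf3, a stress-induced bZIP factor, and Gadd45a, a growth arrest gene, were the highest with all 4 knockdown arrays above both controls, at 0.52 and 0.30, and did not pass without or with the block. Klhl24, Atf3 and Gadd45a, with Klhl24 at -0.36, also had an unadjusted p under 0.05, and these 3 were named after their values were seen.

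The messenger RNAs of the sensors and related factors upstream differed little, and the activity of the sensors was not measured. The list of 14 genes tested held eIF2 kinases, eIF2 and its exchange factor eIF2B, together with Ppp1r15b, Impact and Gcn1. Of the 14 genes 0 passed by limma without or with the block and 0 had an unadjusted p under 0.05. The lowest and highest log2 differences were -0.17 for the kinase Eif2ak3 and 0.24 for the kinase Eif2ak2. The list's smallest p was that of Eif2b2, at 0.21. All 4 knockdown arrays lay above both controls in 2 of the 14 (14.3%, against 11.2% of all genes) and below both in 0 (against 9.54%). For shJmjd1c#3 alone the highest value was 0.40, and 1 gene was higher at an unadjusted p under 0.05, against 5.56% of all genes. Of 20 genes of the ATF6 and XBP1 branches, which answer unfolded protein by other routes, the median was 0.04. Dnajc3, an inhibitor of eIF2 kinases, was at -0.45 and passed with the block (adjusted p = 0.0364 by limma). Its value came from shJmjd1c#4, at -0.86 (adjusted p = 0.0456 by limma without the block), while shJmjd1c#3 was at -0.03, and the hairpins differed by -0.83 (adjusted p = 0.352 by limma, and 0.0219 with the block). Manf, a secreted protein of the endoplasmic reticulum, was at 0.36 and passed as higher with the block (adjusted p = 0.021 by limma). Of 17 p53 targets 0 passed without or with the block, 1 had an unadjusted p under 0.05, Btg2, an antiproliferative gene, at 0.51, and Trp53inp1 was at -0.18.

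Lists of amino acid handling outside the 34 genes held genes above and below 0. The list of other amino acid carriers, which also named Slc7a6os, not itself a carrier, had a median of 0.04 over 19 genes tested. With the block the creatine carrier Slc6a8 passed as lower at -0.43 and Slc7a7, which exports cationic amino acids, as higher at 0.49 (adjusted p = 0.0322 and 0.0451 by limma). In the 12 glutathione and NRF2 genes the median was -0.08, with Gpx4, which reduces lipid peroxides, passing with the block at -0.31 (adjusted p = 0.018 by limma), and Gclm and Slc25a39, which did not pass, at -0.33 and -0.25. The 10 other folate and one-carbon genes ran from -0.57 to 0.36. All 4 knockdown arrays lay below both controls in 2 and above both in 2 (20% each, against 9.54% and 11.2% of all genes). None of them passed without or with the block by limma, with Aldh1l1 at -0.57 and Tyms at -0.53. An unadjusted p under 0.05 was found for 2 of the 10, both lower, against 5.38% of all genes lower. Threonine and glycine breakdown was covered by only 4 tested genes, of which 0 passed by limma and 0 had an unadjusted p under 0.05, with Gcsh at 0.09 and Gnmt at -0.14.

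**Figure D4:**
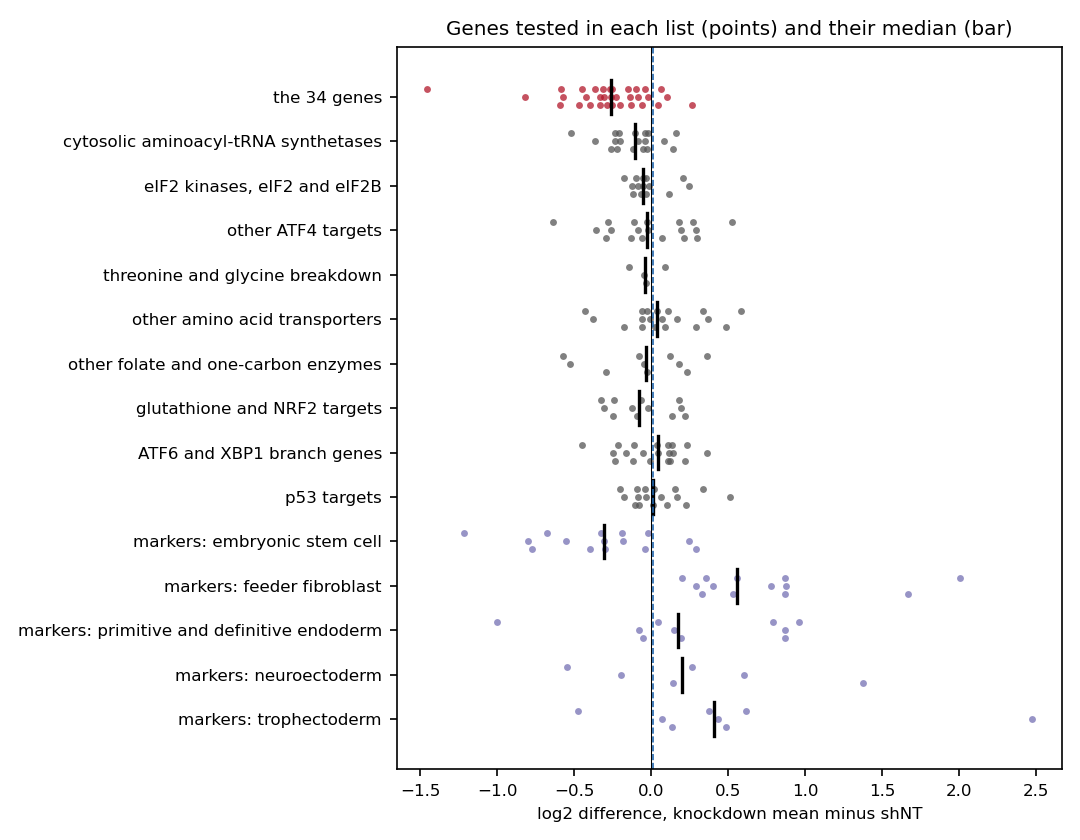
Each point is a tested gene, placed at its log2 difference between the knockdown mean and shNT, each black bar is the median of a list, and the dashed line is the median of all genes tested. The 34 genes, of which 33 were tested, have a median of -0.26, the aminoacyl-tRNA synthetases -0.11 and the embryonic stem cell markers -0.30, and the feeder fibroblast markers 0.56.

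The 15 embryonic stem cell markers had a median log2 difference of -0.30, beside -0.26 for the ATF4 genes. Of these 8 passed with the block as lower, beside 2.26% of all genes, and 0 without it, beside 0.166%. Without the block 6 had an unadjusted p under 0.05, all lower, beside 5.38% of all genes. All 4 knockdown arrays lay below both controls in 5 of the 15 (33.3%), against 9.54% of all genes. Whether the shifts of the 2 sets are linked was not tested.

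Different probe sets of a gene mostly had the same sign. The 34 genes had 77 probe sets in all, and 39 further ones above the filter belonged to 22 of the genes. Of these 34 had the same sign of the knockdown mean as the probe set used, and 5 the opposite sign. Where genes that passed with the block had other probe sets above the filter, the next brightest varied. It was at -0.08 for Slc7a1, -0.17 for Slc1a4 and -0.24 for Cebpg (adjusted p = 0.803, 0.748 and 0.541 with the block by limma over all probe sets). For Asns, Trib3 and Nupr1 it was at -0.46, -0.73 and -1.14 (adjusted p = 0.0238, 0.0882 and 0.0258 by the same fit). Of the 11 genes that passed with the block, 9 had a promoter window and 4 of these held the letters TGATGNAA, namely Nupr1, Trib3, Asns and Slc1a4. Of the 22 genes tested that did not pass, 19 had a window and 3 held the letters, namely Chac1, Pck2 and Vldlr. The letters thus stood in genes that passed and in genes that did not.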

How the data were processed

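Total RNA, 6 ug per sample, was hybridized to Affymetrix Mouse Genome 430 2.0 arrays, 1 array per sample, per the labels. The authors deposited linear signal intensity, and the submitters' processing notes name MAS5 without a version. Every array had a mean of 500.003 over its middle 96% of values, so arrays had been scaled to each other, and no further background correction was made. Dim signal is imprecise, and the number of arrays limits precision. Depth is not defined for arrays.

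Probe sets with 1 symbol in the platform annotation (34945 of 45101, with 932 of several symbols, 9160 of none and 64 controls) were named. Values were taken as log2(signal + 16), with 1 probe set per gene, the highest mean, and genes at or above the 40th percentile of probe sets (log2 5.81) were tested, 12684 in all. On linear means the choice of probe set differed for Psat1. The added 16 shrinks the log2 differences of dim genes. Group means of the 3 groups were fitted to the 6 arrays by limma 3.58.1 (R 4.3.3) with an intensity trend. Tests were 2-sided, and an adjusted p (Benjamini-Hochberg, all tested genes) under 0.05 counted as passing. The fit was tested on simulated data. Errors are SEs from limma.

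Same-numbered arrays deviated together from their group means (correlations of 0.223 to 0.302 between the 3 pairs of groups), so replicate numbers, taken from the titles, were treated as pairing the samples. The design text speaks of independent duplicates and no label states a shared day, and p-values may measure technical spread only.

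Values on every array are given for genes that passed without or with the block, for the 12 smallest p, and for Atf4, Ddit3, Asns, Trib3 and Slc7a11. Ddit4, Stc2 and Cbs were singled out after their values were seen. Of each other list apart from the cell type markers, the genes past the threshold or the 2 with the smallest p are named. The genes and lists were chosen with earlier results of these data known. Of 258 list entries 242 matched a probe set; Tdh, Gcat, Eif2s1 and other unmatched genes are not analysed here. Markers of endoderm, neuroectoderm and trophectoderm had median log2 differences of 0.17, 0.20 and 0.41. Without the block 1 of 13 feeder fibroblast markers, 1 of 6 neuroectoderm and 1 of 8 trophectoderm markers passed as higher. Over all genes that share was 0.56%. The highest log2 differences in the feeder fibroblast, neuroectoderm and trophectoderm lists were 2.01, 1.37 and 2.47. Alternatives were other pseudocounts, filters, normalizations, probe set choices and fits, and leaving out each array.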

Additional observations from a re-analysis of the deposited data

How the results depend on the processing

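For the knockdown mean 1 of the 33 genes passed as reported, 0 without an intensity trend, 0 when probe sets of each gene were averaged, and 11 with the replicate block. Leaving out 1 array gave 0 to 1, and 0 to 1 for shJmjd1c#4 alone. With the replicate block 4 passed for shJmjd1c#3 and 9 for shJmjd1c#4, and 8 genes of the related lists passed, against 0 without it in each case. Between the hairpins the block left the count at 0. With median centring 1 passed for shJmjd1c#4, Nupr1. Pseudocounts of 1 and 64, no filter, a 60th percentile filter, quantile normalization, leaving out probe sets that may cross-hybridize and the knockdown arrays as 1 group each left 1 called in the knockdown mean. The median of the genes, -0.26, was -0.33 with median centring, where that of all genes was -0.06, and ran from -0.33 to -0.23 without single arrays.

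Of genes that did not pass, several changed sign. With the mean of probe sets Eif4ebp1 was at 0.012, Cbs at 0.24 and Vldlr at -0.13, and with median centring Slc38a2 was at -0.0090 and Vldlr at -0.029. Without single arrays Atf4 ran from -0.32 to 0.19, Sesn2 from -0.52 to 0.12, Ddit4 from -0.94 to 0.74, Eif4ebp1 from -0.24 to 0.16, Ppp1r15a from -0.081 to 0.61, Psat1 from -0.33 to 0.049, Mthfd2 from -0.62 to 0.084, Cbs from -0.58 to 0.40, Slc38a2 from -0.065 to 0.20, Vldlr from -0.14 to 0.23 and Stc2 from -0.93 to 0.31. The cause of these changes was not tested. Signal just below the filter, which stood at a log2 of 5.81, limits Slc7a11. The probe sets of Slc1a5 and Cbs were dim but above the filter, at mean log2 values of 7.36 and 7.44.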

Other observations

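Several of the genes differed between replicate numbers in all 3 groups, a comparison the design does not make. Ddit4, which inhibits mTORC1 and responds to many stresses, read 4762, 3894 and 3675 on the replicate 1 arrays of shNT, shJmjd1c#3 and shJmjd1c#4, and 1480, 1876 and 1398 on the replicate 2 arrays. Its mean log2 difference, replicate 2 minus replicate 1, was -1.37, larger in size than that of 99.9% of all genes tested. Stc2 read 693, 474 and 459 on replicate 1 arrays and 284, 287 and 254 on replicate 2 arrays, a difference of -0.92, and Cbs was at -0.70. In the other direction Atf5 was at 0.64, Asns at 0.57, Ppp1r15a at 0.46 and Slc3a2 at 0.43. The replicate difference was larger in size than the knockdown difference for Ddit4, Stc2, Cbs, Asns and Ppp1r15a, and smaller for Atf5 and Slc3a2. It was also larger for Atf4, Sesn2, Eif4ebp1, Phgdh, Psat1, Shmt1, Mthfd2, Slc1a5, Slc38a2 and Vldlr. For Slc7a1 the replicate and knockdown differences were nearly equal in size, at 0.336 and -0.335. In the other genes tested the replicate difference was smaller. The replicate 1 arrays were thus higher for Ddit4 and Stc2 and lower for Asns in all 3 groups. These values have no test, because the replicate numbers are not a condition of the study.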
